A study of Homo sapiens with 8 samples.

Results

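The growth period of a genome-wide CRISPRi screen in K562 cells expressing mutant uL16 was described from 4 libraries, those of mutant cells at day 0 (replicates 1 and 2) and at day 9 (replicates 1 and 2), out of 8 libraries in the study. The other 4 come from cells expressing wild-type uL16 at the same days. They were used to test where the 2 lines differed and in an alternative fit of the mutant change. K562 is a human leukemia line that carries the BCR-ABL1 fusion, and the labels call its cells lymphoblasts. All 8 libraries come from cells that carry dCas9-KRAB and a CRISPRi library and passed 3 days of puromycin selection (1 µg/ml), so both the day 0 and the day 9 cells share these. The design text gives the aim as finding quality control factors for defective large ribosomal subunits and lets the cells grow for 10 doublings, while the labels give the end as day 9. Sample titles and count headers mark the mutant line with the word delta. The labels do not say what the uL16 mutation is, which promoter drives the uL16 construct or whether the lines are clones. Nor do they say whether replicates were separate cultures, so p-values measure the spread between these libraries, which may be technical. The libraries hold sgRNA counts and no transcripts, so the cell type was not checked against marker expression.

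Members were the sgRNAs with a mean count of at least 20 over the 4 mutant libraries, which kept 104940 of 209070 listed sgRNAs (50.2%), 103046 targeting and 1894 non-targeting controls. A further 103705 sgRNAs were never counted in these 4 libraries, and 425 with counts were left out by the limit. At that limit, an sgRNA each of CCL13, CT47A7 and CT47B1 was kept at a mean count of 20, and an sgRNA each of CSRNP3, SEC14L4 and TCEAL1 was left out at 19.75. Summed over the primary promoter, 96031 sgRNAs gave 18903 genes out of 18905 in the series, and 17881 genes had exactly 5 sgRNAs. Total counts were 75971255 and 143585751 at day 0 and 39233340 and 102693061 at day 9, and the median kept sgRNA had between 331 and 1223 counts in a library. The PCR reads carry no molecular identifiers and may repeat a molecule, so depth bears on counting error only.

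In CRISPRi an inactive Cas9 fused to the KRAB repressor is led by an sgRNA to a promoter and lowers transcription there. Cells whose targeted gene is needed for growth are overgrown by the others, so their sgRNA takes a smaller share of the library at the end than at the start. The large ribosomal subunit is built in the nucleolus, exported and completed in the cytoplasm, where uL16, encoded by RPL10, is among the last proteins to join. Factors such as NMD3, LSG1, SBDS and EFTUD1 (now EFL1) act around that step, and ZNF574 is named in the study's title as a quality control factor for defective assembly intermediates.

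The sgRNAs act at promoters, so the 250 bases before the RefSeq start site (build GRCh38.p14) are shown for 4 genes on which the results turn: ZNF574 with its 2 listed start sites and ZNF622, whose falls differed between the lines, NOP2 with the largest fall, and GPS2 with a place among the named rises. Each is written 5′ to 3′ on the gene's strand, with the NGG on that strand nearest to the start site, the motif next to which Cas9 binds, in capitals.
ZNF574 start site 1 (chr19:42068227-42068476, plus strand): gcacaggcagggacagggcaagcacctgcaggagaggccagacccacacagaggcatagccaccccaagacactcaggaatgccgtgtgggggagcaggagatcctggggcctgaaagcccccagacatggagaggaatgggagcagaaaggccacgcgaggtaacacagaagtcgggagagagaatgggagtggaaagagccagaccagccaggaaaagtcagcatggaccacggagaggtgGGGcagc
ZNF574 start site 2 (chr19:42075916-42076165, plus strand): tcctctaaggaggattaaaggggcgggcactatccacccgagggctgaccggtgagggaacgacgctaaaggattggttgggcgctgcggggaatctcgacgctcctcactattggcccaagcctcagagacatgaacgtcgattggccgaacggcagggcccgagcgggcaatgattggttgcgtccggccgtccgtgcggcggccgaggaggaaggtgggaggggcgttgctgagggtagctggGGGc
ZNF622 (chr5:16465801-16466050, minus strand): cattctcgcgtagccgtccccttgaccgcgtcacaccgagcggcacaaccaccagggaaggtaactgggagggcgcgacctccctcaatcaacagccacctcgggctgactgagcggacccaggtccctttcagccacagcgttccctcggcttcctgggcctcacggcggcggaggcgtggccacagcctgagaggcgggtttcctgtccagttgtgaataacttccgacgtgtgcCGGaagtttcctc
NOP2 (chr12:6568292-6568541, minus strand): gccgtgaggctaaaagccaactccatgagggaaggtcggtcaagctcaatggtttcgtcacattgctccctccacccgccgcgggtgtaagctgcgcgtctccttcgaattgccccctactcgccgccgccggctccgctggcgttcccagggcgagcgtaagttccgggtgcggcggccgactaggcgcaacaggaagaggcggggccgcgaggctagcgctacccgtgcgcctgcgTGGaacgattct
GPS2 (chr17:7315361-7315610, minus strand): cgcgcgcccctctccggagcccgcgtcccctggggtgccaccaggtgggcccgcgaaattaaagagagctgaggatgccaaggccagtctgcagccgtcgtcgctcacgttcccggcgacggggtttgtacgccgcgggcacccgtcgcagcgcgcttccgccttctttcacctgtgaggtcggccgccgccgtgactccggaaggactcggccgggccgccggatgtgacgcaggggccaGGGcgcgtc
The marked NGG lay 7 and 4 bases before the start site for ZNF574, 13 for ZNF622, 12 for NOP2 and 9 for GPS2. Counting NGG on both strands, with overlaps, these windows held 55, 60, 53, 50 and 60 of them in the order printed. The median over 35116 RefSeq windows of the same length was 48, and 99.99% of those windows held at least 1. Positions in the sgRNA names belong to another build, so no sgRNA was placed on these sequences.

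Over the growth period 1693 of 18903 genes (8.96%) fell and 180 (0.952%) rose, at an adjusted p under 0.05 by edgeR's quasi-likelihood test with Benjamini-Hochberg adjustment over all genes. Changes are log2 changes of normalized CPM (each library's counts scaled to a common total, with TMM factors), day 9 against day 0, so a change of -1 leaves 50% of the starting share. The falls reached far further than the rises: 597 genes fell below -1, 175 below -2, 57 below -3 and 16 below -4, while 10 genes rose above 0.5 and 0 above 1. The median over all genes was 0.0094, that of the genes that fell -0.73 and that of the genes that rose 0.33. Control sgRNAs had a median of 0.04 with an SD of 0.35 (n = 1894 sgRNAs), and 8 of them passed the test for single sgRNAs downward and 3 upward. The count of rises moved with each library: it was 32 without day 0 replicate 1, 31 without day 0 replicate 2, 967 without day 9 replicate 1 and 1097 without day 9 replicate 2.

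**Figure D1:**
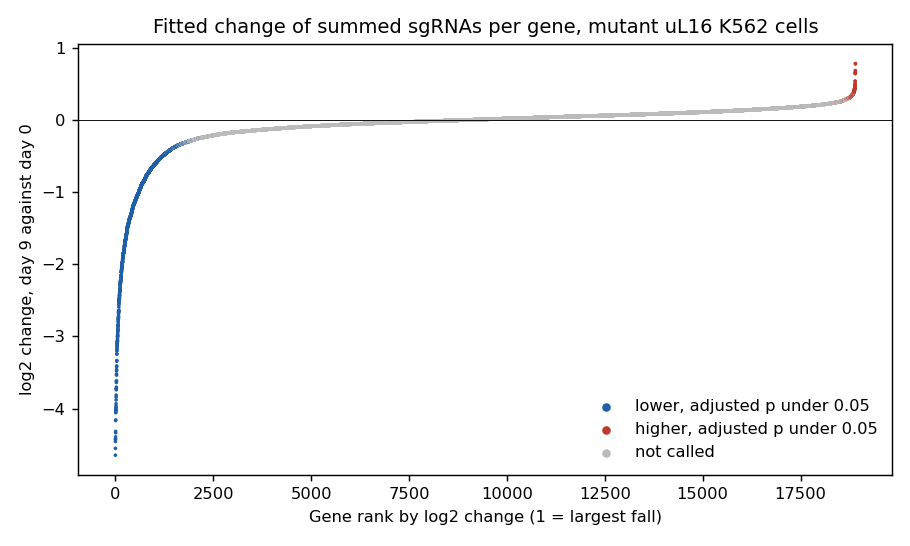
Fitted log2 change from day 0 to day 9 (y axis) of each of 18903 genes, ordered by that change (x axis, rank 1 is the largest fall), with genes of an adjusted p under 0.05 in blue (lower) or red (higher). The curve drops to -4.65 at its left end and ends at 0.78 on its right.

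NOP2, a nucleolar rRNA methyltransferase of the large subunit, stood at 9.49 and 10.7 CPM in the day 0 libraries and at 0.354 and 0.425 CPM at day 9, replicate 1 first as in all pairs that follow. This was a 25.1-fold fall, a log2 change of -4.65 ± 0.44 (SE, adjusted p = 4.78e-08). LSM6, a subunit of the LSm ring that binds U6 snRNA, went from 26.2 and 19.7 CPM to 1.11 and 0.899 (-4.55 ± 0.26). In each of these genes both day 9 libraries lay far below both day 0 libraries. SEC61A1, the pore subunit of the endoplasmic reticulum translocon, went from 26.3 and 26.6 CPM to 1.34 and 1.12 (-4.46 ± 0.22). WDR5, a subunit shared by histone methyltransferase and acetyltransferase complexes, went from 16.5 and 12.3 CPM to 0.861 and 0.561 (-4.43 ± 0.35). PFDN2, a prefoldin subunit whose sgRNAs are partly listed under NIT1 too, changed by -4.42 ± 0.22. RPL17, a large-subunit protein with sgRNAs within 1 kb of those of RPL17-C18orf32, changed by -4.39 ± 0.50 from the low starting level of 7.65 and 8.35 CPM.

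The next falls named Mediator and the replication machinery. MED30, a metazoan Mediator subunit, went from 34.6 and 35.6 CPM to 2.28 and 1.40 (-4.34 ± 0.21). LSM7, a further LSm ring subunit with sgRNAs within 1 kb of those of SPPL2B, changed by -4.32 ± 0.25. MCM2, a subunit of the replicative helicase, changed by -4.17 ± 0.28, and CHAF1B, a subunit of the histone chaperone CAF-1, by -4.16 ± 0.29. The remaining 10 of the 20 largest falls lay between -4.06 and -3.88. They were SNRPF (an Sm ring protein), SRBD1, SMU1 (a splicing factor), NRDE2 (a nuclear RNA factor), GINS1 (replicative helicase), VARS (valyl-tRNA synthetase), CENPI (inner kinetochore), CASP8AP2 (histone mRNA synthesis), RFC3 (sliding clamp loader) and CYB5B (a mitochondrial outer membrane cytochrome). SRBD1 belongs to no list used here and went from 45.6 and 38.3 CPM to 2.99 and 2.22. CYB5B, also in no list, went from 31.7 and 24.5 CPM to 1.16 and 2.39. All 20 genes had day 9 libraries below both day 0 libraries, as the rule for naming them asked, and so had all 1693 genes that fell. The same held for 4604 of all 18903 genes, called or not.

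**Figure D2:**
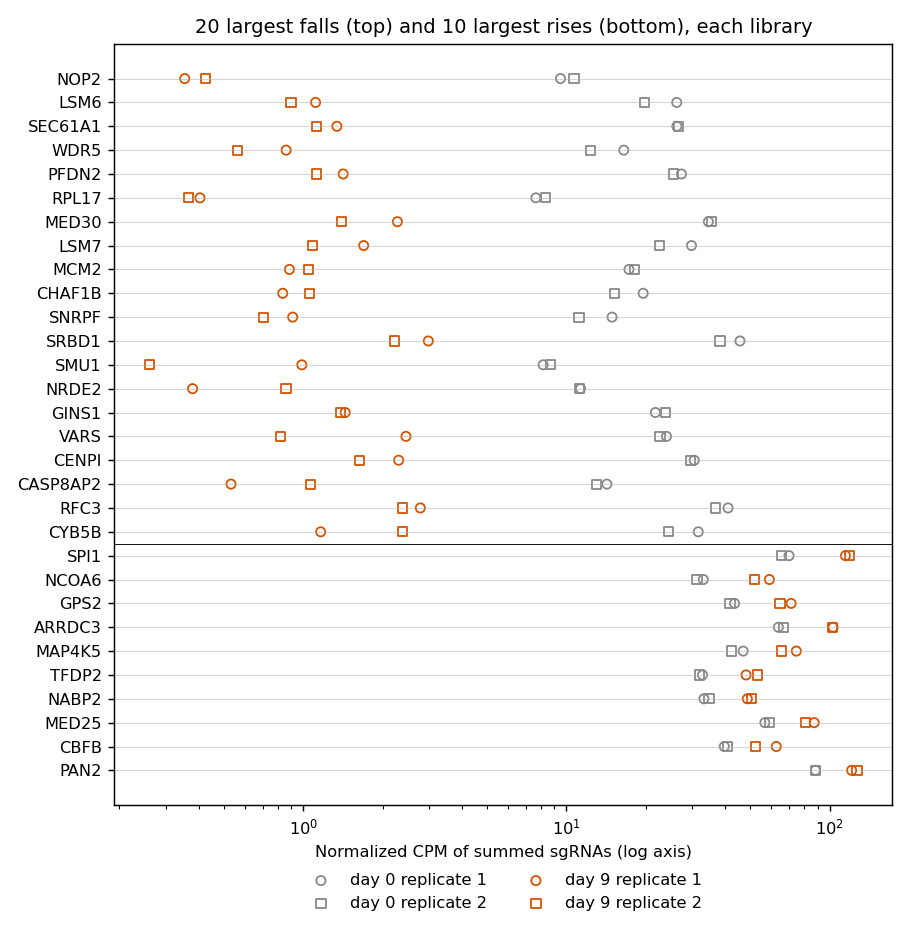
Normalized CPM of summed sgRNAs (x axis, log scale) in each of the 4 mutant libraries for the 20 genes with the largest fall and the 10 with the largest rise (y axis), grey for day 0 and orange for day 9, circles for replicate 1 and squares for replicate 2. The falls leave CPM values between 0.261 and 2.99 at day 9, and the rises end at most at 127 CPM.

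Rises were small, and the named ones include several transcription regulators. SPI1, the gene of the myeloid factor PU.1, went from 70.1 and 65.8 CPM to 114.8 and 118.7 (0.78 ± 0.07, adjusted p = 1.56e-08). NCOA6, a nuclear receptor coactivator found with histone methyltransferases, went from 33.1 and 31.3 CPM to 59.0 and 51.6 (0.78 ± 0.10). GPS2, which belongs to the NCoR corepressor, went from 43.5 and 41.8 CPM to 71.4 and 64.8 (0.67 ± 0.09). For these 3 genes each sgRNA rose in the fit. Both day 9 libraries lay above both day 0 libraries in these 3 genes, as the rule for naming them asked. The other named rises were ARRDC3 (an arrestin-domain protein), MAP4K5 (a kinase), TFDP2 (a partner of E2F factors), NABP2 (a single-stranded DNA binding protein, sgRNAs within 1 kb of those of RNF41), MED25 (Mediator), CBFB (the partner of RUNX factors) and PAN2 (a deadenylase), between 0.65 and 0.49. CBFB was held up by 4 of its 5 sgRNAs and the others by all of theirs. NABP2 was not called without its most abundant sgRNA (0.31, adjusted p = 0.175).

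Genes listed under large-subunit maturation in the cytoplasm fell in 14 of 21 cases, with a median of -0.71, against 8.96% and 0.0094 over all genes. The list was chosen with earlier results of these data known and holds ZNF574, named in the study's title. Its share therefore describes the list and is no independent test. ZNF574 had the lowest value, going from 37.2 and 36.3 CPM to 6.91 and 7.03 (-2.40 ± 0.15, adjusted p = 9.21e-11). SDAD1, a nuclear pre-60S factor that the list holds too, went from 33.9 and 36.0 CPM to 8.33 and 5.51 (-2.37 ± 0.18). In both genes the day 9 libraries lay far below both day 0 libraries. LSG1, the GTPase that releases NMD3 when uL16 is in place, went from 37.4 and 31.7 CPM to 12.7 and 10.7 (-1.57 ± 0.15). NMD3, the export adaptor, went from 39.2 and 37.3 CPM to 16.8 and 18.0 (-1.13 ± 0.12). EIF6, which keeps the subunits apart, changed by -1.38 ± 0.13, and EFTUD1, the GTPase that evicts it, by -1.17 ± 0.09. SBDS, the cofactor of that GTPase, stood at 45.3 and 41.3 CPM at day 0 and 43.8 and 36.0 at day 9, with overlapping libraries and no call (-0.12 ± 0.11, adjusted p = 0.621), but it was called lower without day 9 replicate 1 (-0.27, adjusted p = 0.0476). ZNF622, a factor at the tunnel exit of the late subunit, went from 54.2 and 54.7 CPM to 26.7 and 22.0 (-1.17 ± 0.11), and DNAJC21, which acts at the same site, from 57.8 and 57.1 to 36.7 and 36.0 (-0.66 ± 0.09). CINP, part of the 55LCC ATPase complex and with sgRNAs partly listed under TECPR2, changed by -1.31 ± 0.09.

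Among the proteins of the large subunit, RPL10 included, 33 of 47 fell (median -0.95). RPL15 went from 18.6 and 17.6 CPM to 2.91 and 1.61 (-3.08 ± 0.27, sgRNAs within 1 kb of those of NKIRAS1), and RPL34 from 23.3 and 20.5 to 3.01 and 3.06 (-2.85 ± 0.21). RPL13A had the highest value of the list (0.07 ± 0.09, adjusted p = 0.775), with 49.5 and 53.6 CPM at day 0 and 57.5 and 50.9 at day 9. RPL10 went from 27.6 and 28.7 CPM to 10.8 and 12.3 (-1.28 ± 0.15, adjusted p = 1.20e-06). Of the 40S proteins 24 of 33 fell (median -0.77), among them RPS27A (-3.72 ± 0.27, sgRNAs within 1 kb of those of CLHC1) and RPS13 (-2.35 ± 0.20), while RPS25 stood at 0.08 ± 0.10.

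Earlier assembly steps followed. Of the nuclear 60S assembly factors 42 of 54 fell (median -0.78), led by NOP2 and with DDX56, an RNA helicase, at -2.51 ± 0.13 and NOC3L at -2.15 ± 0.13. Of the small-subunit processome 36 of 49 fell (median -0.74), with FCF1 at -3.64 ± 0.18 (sgRNAs within 1 kb of those of AREL1) and HEATR1 at -3.14 ± 0.16, both acting on the first cleavages of pre-rRNA. FCF1 went from 30.6 and 33.4 CPM to 2.81 and 2.41. Late pre-40S factors fell in 8 of 16 tested cases (17 are listed, median -0.32), and RIOK2, a kinase of cytoplasmic pre-40S particles, went from 56.1 and 54.0 CPM to 3.85 and 5.40 (-3.54 ± 0.15). RNA polymerase I genes fell in 15 of 20 cases (median -0.65, POLR1D at -1.24 ± 0.12 with sgRNAs within 1 kb of those of LNX2) and RNA polymerase III genes in 12 of 22 (median -0.46, GTF3C3 at -0.99 ± 0.14). UBTF, the rDNA promoter factor, stood at 0.02 ± 0.14 and was not called.

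Translation genes fell in part. Initiation and elongation factors fell in 24 of 38 cases (15 and 14 without day 0 replicates 1 and 2, median -0.54), with EIF2S1, the alpha subunit of eIF2, at -2.75 ± 0.20 (sgRNAs within 1 kb of those of ATP6V1D) and EIF4G2 at -2.23 ± 0.16. Cytosolic aminoacyl-tRNA synthetases fell in 16 of 23 cases (median -0.51). VARS went from 24.0 and 22.6 CPM to 2.46 and 0.821 and AARS, the alanyl-tRNA synthetase, from 22.4 and 20.1 to 0.861 and 2.31, so their day 9 replicates differed among themselves while staying far below day 0. Genes of translation quality control fell in 12 of 32 cases (median -0.11). ABCE1, the ribosome recycling ATPase with sgRNAs partly listed under ANAPC10, changed by -3.34 ± 0.18, DDRGK1, an adaptor of UFMylation, by -1.26 ± 0.11 and GCN1L1, a sensor of collided ribosomes, by -1.22 ± 0.12. GIGYF2, a repressor of initiation on faulty messages, stood at 0.17 ± 0.11 and was called higher without day 9 replicate 1 (0.29, adjusted p = 0.0239).

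Genes for translation inside mitochondria had the highest share of falls of all 49 lists: 72 of 82 mitochondrial ribosomal proteins fell (87.8%, median -0.99). MRPL22 went from 43.4 and 45.5 CPM to 4.83 and 5.66 (-3.07 ± 0.15) and MRPS17 from 45.0 and 48.7 to 6.10 and 5.21 (-3.07 ± 0.14). MRPL28 had the highest value (0.18 ± 0.09, adjusted p = 0.315) and was called higher without day 9 replicate 2 (0.28, adjusted p = 0.0167). Mitochondrial tRNA synthetases fell in 15 of 20 cases (median -0.75), with VARS2 at -2.11 ± 0.13 and TARS2 at -1.53 ± 0.11. The respiratory chain, much of which these ribosomes and the nuclear genome build together, had medians nearer to 0, with falls in 29 of 50 genes for complex I (median -0.31, NDUFA8 at -1.99 ± 0.12 with sgRNAs within 1 kb of those of MORN5) and 31 of 55 for complexes II to V (20 without day 0 replicate 2, median -0.42, SDHC at -2.30 ± 0.18). PET117, a complex IV assembly gene at -1.73 ± 0.09, shares sgRNAs with CSRP2BP, an ATAC subunit at -1.73 ± 0.10, so the 2 cannot be told apart. Mitochondrial import fell in 18 of 34 cases (median -0.42, DNAJC19 at -2.26 ± 0.16), iron-sulfur and heme synthesis in 15 of 37 (median -0.29, NARFL, a cytosolic iron-sulfur assembly factor, at -1.63 ± 0.13) and coenzyme Q synthesis in 3 of 13 (5 without day 9 replicate 2, median -0.07), namely COQ2 at -1.58 ± 0.11, PDSS2 at -0.87 ± 0.10 and COQ6 at -0.57 ± 0.11, the last with sgRNAs within 1 kb of those of FAM161B.

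**Figure D3:**
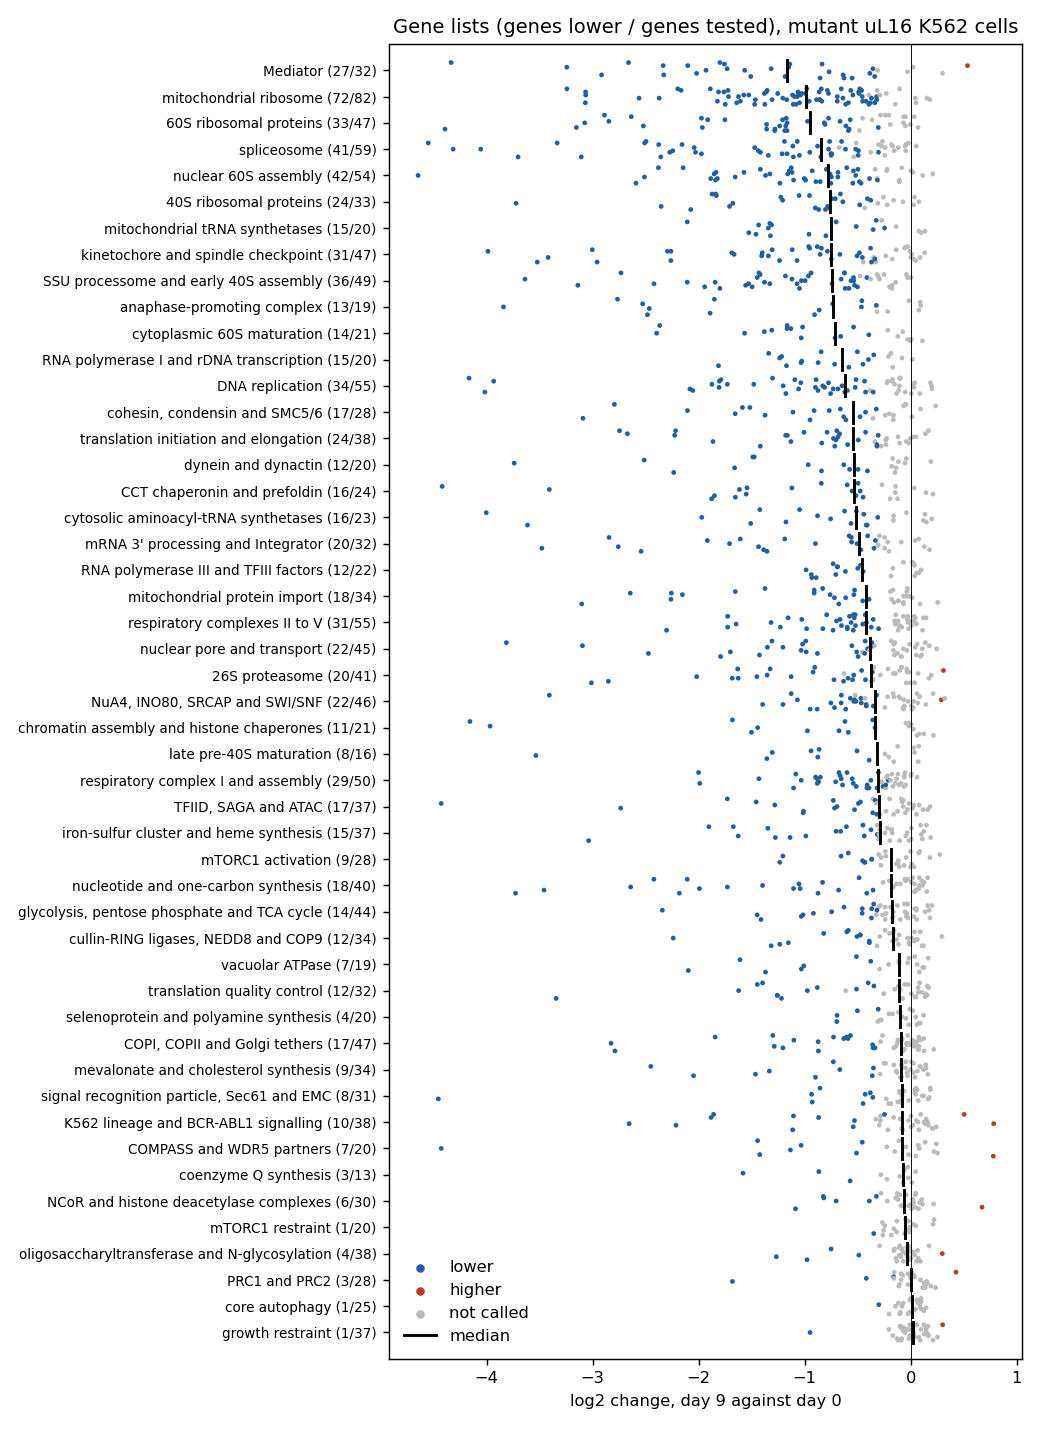
Log2 change from day 0 to day 9 (x axis) of each gene in 49 lists (y axis, with genes lower and genes tested in brackets), points in blue or red where called and grey where not, and a black bar at each list's median. Medians run from -1.17 for Mediator to 0.02 for genes of growth restraint.

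Mediator, the complex that links transcription factors to RNA polymerase II, had the lowest median of the lists (-1.17), with 27 of 32 genes lower and MED25 alone higher. MED17, a core subunit, went from 39.6 and 37.0 CPM to 3.72 and 4.28 (-3.24 ± 0.16) and MED1 from 42.3 and 48.7 to 8.07 and 6.48 (-2.66 ± 0.15). MED25 went the other way, from 56.7 and 59.2 CPM to 87.4 and 80.8 (0.54 ± 0.08, adjusted p = 2.39e-05). TFIID, SAGA and ATAC genes fell in 17 of 37 cases (11 without day 0 replicate 2, median -0.30, TAF2 at -2.74 ± 0.19). Genes of COMPASS and partners of WDR5 fell in 7 of 20 cases and rose in 1, NCOA6 (median -0.08), with MEN1 at -1.14 ± 0.10. DPY30, with sgRNAs partly listed under MEMO1, stood at -1.44 ± 0.10. Remodelling complexes of the NuA4, INO80, SRCAP and SWI/SNF groups fell in 22 of 46 cases (13 without day 0 replicate 1) and rose in 1 (median -0.34), with the shared ATPase RUVBL1 at -3.41 ± 0.30.

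Polycomb genes fell in 3 of 28 cases (10.7%, close to the 8.96% of all genes) and rose in 1 (median 0.0052): RBBP4, a histone-binding subunit shared with other complexes, at -1.68 ± 0.11 (sgRNAs within 1 kb of those of ZBTB8OS) and PCGF1 at -0.42 ± 0.09 among the falls, and MTF2, an accessory subunit of PRC2, as the rise (53.4 and 53.4 CPM to 73.5 and 70.2, 0.43 ± 0.08). PCGF1 was not called without its most abundant sgRNA (-0.19, adjusted p = 0.405) or without day 0 replicate 1 (adjusted p = 0.203), and the count of falls was 1 in each case. NCoR and histone deacetylase complexes fell in 6 of 30 cases and rose in 1, GPS2 (median -0.06), with SAP18 at -1.09 ± 0.12 and RCOR1 at -0.83 ± 0.14. The spliceosome had 41 of 59 genes lower (median -0.85, DDX23 at -2.51 ± 0.16). Genes of mRNA 3′ processing and Integrator fell in 20 of 32 cases (median -0.49), with INTS3 at -2.85 ± 0.18 and CPSF1 at -2.76 ± 0.14.

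Cell division genes fell in the majority. DNA replication genes fell in 34 of 55 cases (median -0.62), with GINS1 going from 21.8 and 23.8 CPM to 1.44 and 1.38 and RFC3 from 41.1 and 36.8 to 2.78 and 2.39. ORC4, an origin recognition subunit, stood at 0.20 ± 0.09 and was not called (adjusted p = 0.229), but was called higher without day 9 replicate 1 (0.32, adjusted p = 0.000406). Kinetochore and checkpoint genes fell in 31 of 47 cases (median -0.75). CENPI went from 30.6 and 29.7 CPM to 2.30 and 1.63 and DSN1, an outer kinetochore protein, from 32.0 and 33.3 to 3.42 and 2.44. The anaphase-promoting complex fell in 13 of 19 cases (median -0.74, CDC16 at -2.47 ± 0.19) and cohesin, condensin and SMC5/6 in 17 of 28 (median -0.54, NCAPH at -1.59 ± 0.12). Dynein and dynactin fell in 12 of 20 cases (median -0.54, DCTN3 at -3.74 ± 0.21), and chromatin assembly genes in 11 of 21 (7 without day 0 replicate 2, median -0.34).

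Folding and turnover genes were split by complex. The CCT chaperonin and prefoldin, which fold actin and tubulin, fell in 16 of 24 cases (median -0.54), with CCT2 at -1.88 ± 0.14 and CCT7 at -1.85 ± 0.14. The 26S proteasome fell in 20 of 41 cases and rose in 1 (median -0.37): PSMD4, a ubiquitin receptor, went from 25.9 and 28.7 CPM to 3.90 and 3.69 (-2.85 ± 0.18), while PSMD5, an assembly chaperone, rose from 51.4 and 58.0 to 68.6 and 67.0 (0.31 ± 0.09). The count of falls in this list was 11 without day 0 replicate 1 and 10 without day 0 replicate 2. PSMD5 was not called without its most abundant sgRNA (adjusted p = 0.244), without day 0 replicate 1 (0.601) or by limma (0.101). Cullin-RING, NEDD8 and COP9 genes fell in 12 of 34 cases (7 without either day 0 library, median -0.17), with UBA3, the NEDD8-activating enzyme, at -2.24 ± 0.17. Nuclear pore and transport genes fell in 22 of 45 (14 without day 0 replicate 1, median -0.38), with NUPL1 at -3.81 ± 0.30 and NUP205 at -2.47 ± 0.16.

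In the 4 secretory pathway lists the medians lay between -0.11 and -0.03. Signal recognition, Sec61 and EMC genes fell in 8 of 31 cases (median -0.09; 5 without day 0 replicate 1 and 4 without day 0 replicate 2), and below SEC61A1 the next was EMC2 at -0.94 ± 0.10. N-glycosylation genes fell in 4 of 38 cases (7 without day 9 replicate 1) and rose in 1 (median -0.03), a share of falls close to the 8.96% of all genes. DDOST, a subunit of the oligosaccharyltransferase, went from 40.2 and 36.1 CPM to 10.9 and 20.2 (-1.27 ± 0.18) and was not called without its most abundant sgRNA (-0.75, adjusted p = 0.0673). ALG3, a mannosyltransferase, was the rise at 0.30 ± 0.09 (adjusted p = 0.0465, lost without either day 0 library, adjusted p = 0.465 and 0.406). The call was also lost without the most abundant sgRNA of ALG3 (0.19, adjusted p = 0.385) and by limma (adjusted p = 0.371). It was lost too with control scaling (adjusted p = 0.0836) and with all 8 libraries in the fit (0.0761). ALG3 has sgRNAs within 1 kb of those of ECE2, so its rise cannot be told apart from a rise of that neighbour. COPI, COPII and Golgi tether genes fell in 17 of 47 cases (median -0.09, GBF1 at -2.83 ± 0.16), and the vacuolar ATPase in 7 of 19 (median -0.11, ATP6V1A at -2.10 ± 0.15 with sgRNAs within 1 kb of those of NAA50).

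Metabolic lists held from 4 to 18 falls each. Nucleotide and one-carbon synthesis fell in 18 of 40 cases (median -0.18): MTHFD1, a folate enzyme, went from 36.9 and 31.5 CPM to 2.28 and 2.78 (-3.73 ± 0.18) and CAD, which starts pyrimidine synthesis, from 32.9 and 35.1 to 2.25 and 3.69 (-3.46 ± 0.20). SLC19A1, a folate carrier, stood at 0.16 ± 0.09. Mevalonate and cholesterol genes fell in 9 of 34 cases (median -0.09, HMGCS1 at -2.45 ± 0.14), and glycolysis, pentose phosphate and TCA genes in 14 of 44 (median -0.18, DLD at -2.34 ± 0.13 and PGK1 at -1.41 ± 0.10). The latter count was 8 without day 0 replicate 1 and 9 without day 0 replicate 2. Selenoprotein and polyamine genes fell in 4 of 20 cases (median -0.10), with EEFSEC, the elongation factor for selenocysteine, at -0.70 ± 0.11. EIF5A, a translation factor that carries the polyamine-derived hypusine, went from 36.7 and 32.8 CPM to 16.1 and 26.2 (-0.70 ± 0.16) and was not called by DESeq2 (adjusted p = 0.174).

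Genes of K562 lineage and BCR-ABL1 signalling fell in 10 of 38 cases and rose in 2, SPI1 and CBFB (median -0.08). GATA1, the master factor of erythroid cells, went from 29.6 and 31.7 CPM to 4.53 and 5.12 (-2.66 ± 0.17), BCR, the promoter of the fusion gene, from 35.7 and 39.1 to 8.71 and 7.51 (-2.21 ± 0.15), and KLF1 from 33.3 and 37.8 to 10.3 and 9.36 (-1.86 ± 0.14). Activators of mTORC1 fell in 9 of 28 cases (5 without day 0 replicate 2, median -0.19), with MTOR at -1.24 ± 0.10 and MLST8 at -0.66 ± 0.10. Genes listed under mTORC1 restraint fell in 1 of 20 cases (median -0.05), LARP1, at -0.35 ± 0.10 and with 3 of 5 sgRNAs lower. Without its most abundant sgRNA the value of LARP1 was 0.12 and it was not called (adjusted p = 0.694). It was not called either without day 0 replicate 1 (log2 change -0.33) or 2 (-0.36). Growth restraint genes fell in 1 of 37 cases and rose in 1 (median 0.02), PTPN1 at -0.95 ± 0.10 and LATS2 at 0.30 ± 0.10 (adjusted p = 0.0491). With control scaling (adjusted p = 0.0867), a mean count of at least 100 (0.0508) or all 8 libraries in the fit (0.0660) the call for LATS2 was lost. LATS2 was not called without day 0 replicate 1 (adjusted p = 0.467), without day 0 replicate 2 (0.404) or without day 9 replicate 2 (0.0772). Core autophagy genes fell in 1 of 25 cases (median 0.01), PIK3C3, at -0.30 ± 0.09 (adjusted p = 0.0472, and 0.0909 and 0.745 without day 0 replicates 1 and 2). These 3 shares of falls lay below the 8.96% of all genes. Their counts were small and moved when a library was left out: mTORC1 restraint had 0 falls without either day 0 library and 3 and 4 without day 9 replicates 1 and 2, core autophagy had 0 without either day 0 library and 2 without either day 9 library, and growth restraint had 2 without day 9 replicate 1.

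The lists together held 1667 of the 18903 genes tested, and 838 of these fell. Among all the remaining tested genes 855 fell, 196 of them below -1. Per chromosome the share of genes lower ran from 6.20% on chromosome 7 to 11.9% on chromosome 14. Of the genes that fell, 403 (23.8%) have counted sgRNAs within 1 kb of those of another gene, as have 2463 of all 18903 genes tested. Their fall cannot be told apart from a fall of that neighbour.

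At the level of single sgRNAs, 5292 of 104940 (5.04%) fell and 222 (0.212%) rose. The number of falls was 3518 without day 0 replicate 2, 9028 without day 9 replicate 1 and 9098 without day 9 replicate 2, and that of rises was 56 and 66 without day 0 replicates 1 and 2 and 3588 and 3921 without day 9 replicates 1 and 2. Of the 5174 primary-promoter sgRNAs that fell, 75.0% lay in genes that fell. Of the 1693 genes that fell, 1112 had at least 2 called sgRNAs, 431 had 1 and 150 had 0, and all sgRNAs went down in 912. Among the 180 rises 12 genes had at least 2 called sgRNAs, 49 had 1 and 119 had 0. A further 1215 genes that were not called had at least 1 sgRNA that fell.

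The 5 primary sgRNAs of ZNF574 all fell, at -3.49, -3.18, -2.77, -2.38 and -1.47. The first of these had 433 and 1137 counts at day 0 and 18 and 74 at day 9. Its 5 second-promoter sgRNAs lay between -0.18 and 0.27 and none passed the test. The 5 sgRNAs of RPL10 spread more widely, at -4.29, -3.86, -1.58, -1.51 and -0.44, with 2 called. The sgRNA at -3.86 was not called and rested on 13 and 68 counts at day 0 and 1 and 2 at day 9. NOP2 had 4 sgRNAs between -4.98 and -4.22, and SPI1 had 5 between 0.64 and 1.07, all called. The kept sgRNAs with a count of 0 in both day 9 libraries were 6, and they target AGO1, CCDC157, KLK3, PSMB6, PSMD11 and RPA1. They started low, with 19 to 55 counts in day 0 replicate 1 and 50 to 97 in day 0 replicate 2. The medians of kept sgRNAs in these libraries were 647 and 1223.

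**Figure D4:**
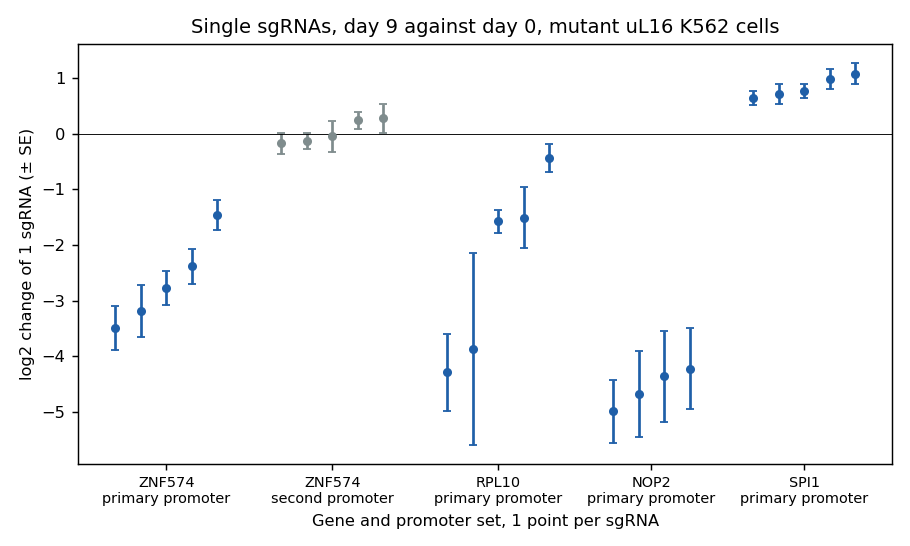
Log2 change from day 0 to day 9 of single sgRNAs (y axis, bars are ± SE) for ZNF574, RPL10, NOP2 and SPI1 (x axis, 1 point per sgRNA), blue for primary promoters and grey for the second promoter of ZNF574. Primary sgRNAs of ZNF574 reach -3.49, and those of its second promoter stay between -0.18 and 0.27.

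Some calls rested on a minority of a gene's sgRNAs. In 31 called genes, 29 lower and 2 higher, under 50% of the sgRNAs went in the direction of the call. The largest of these, named after their values were seen, were HMGB3 (-0.85, with 2 of 5 sgRNAs lower and sgRNA values from -3.43 to 0.80) and POP4, an RNase P subunit (-0.71, 2 of 5). GART, a purine synthesis enzyme (-0.68), likewise had 2 of 5 sgRNAs lower, the lowest at -4.39. DOCK11 had the third largest rise of all genes (0.69) but only 2 of 5 sgRNAs higher, the highest at 1.65, and so was not named among the rises.

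Separate second promoters, targeted for 1395 genes, gave 12 falls (0.86%) and 0 rises in their own edgeR test, with 45 higher at an unadjusted p under 0.05. The number of falls was 7 and 4 without day 0 replicates 1 and 2 and 35 and 38 without day 9 replicates 1 and 2, and DESeq2 was not run on these sets. CENPA, the centromeric histone, had the largest fall, from 21.7 and 23.8 CPM to 2.43 and 1.46 (-3.63 ± 0.31, adjusted p = 4.45e-07). Its primary-promoter sgRNAs stood at 131.2 and 119.8 CPM at day 0 and 128.5 and 124.2 at day 9 (0.01 ± 0.06), so the libraries overlapped there. All 5 second-promoter sgRNAs of CENPA fell, from -4.80 to -2.42. RCC1, the nucleotide exchange factor of Ran, fell by 1.68 on the log2 scale at its second promoter against -0.18 at its primary one, and CBFA2T3, a corepressor, by 1.56 against 0.06; both were named after their values were seen. PTCD1, a mitochondrial RNA-binding protein, fell at both (-1.75 and -0.89), and so did the read-through gene ATP5J2-PTCD1 (-1.85 and -0.62). The second-promoter counts of ATP5J2-PTCD1 are those of 5 of the 6 PTCD1 sgRNAs, so these 2 falls are not separate results. Of 1393 genes with both sets tested, 104 fell at the primary promoter, 12 at the second and 2 at both, while SEC61A1 stood at 0.09 ± 0.09 at its second promoter.

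Where the growth effect of the mutant line differed from that of the wild-type line was tested as the difference of the changes in a fit over all 8 libraries. It gave 3 of 18903 genes (0.0159%): ZNF574, ZNF622 and RPL10, all of which fell further in mutant cells. ZNF574 went from 36.3 and 36.5 CPM to 31.5 and 25.0 in wild-type cells (-0.37 ± 0.14, not called there), and the difference, mutant minus wild-type, was -2.03 ± 0.20 (adjusted p = 2.85e-07). ZNF622 went from 50.0 and 54.7 CPM to 45.4 and 46.0 in wild-type cells (-0.20 ± 0.11), a difference of -0.97 ± 0.15 (adjusted p = 0.00378). RPL10 went from 27.3 and 29.5 CPM to 22.9 and 30.3 in wild-type cells, where its libraries overlapped, a difference of -1.17 ± 0.22 (adjusted p = 0.0396). The differences of LSG1 (-1.04 ± 0.21, adjusted p = 0.0787) and NMD3 (-0.87 ± 0.19, adjusted p = 0.125) did not pass. Those of DNAJC21 (-0.51 ± 0.15), EIF6 (-0.24 ± 0.19), EFTUD1 (-0.22 ± 0.13) and SBDS (-0.11 ± 0.16) did not either. A p above the threshold does not show that the lines act alike in these genes. At an unadjusted p under 0.05 the test had 1053 of 18903 genes. A share near 0.05 passes that limit where no gene differs, so the count by itself points to no further differences.

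The call for ZNF574 held in 15 of 15 alternative settings, that for ZNF622 in 14 and that for RPL10 in 8. ZNF622 was lost without wild-type day 0 replicate 1 (-0.91, adjusted p = 0.289). RPL10 was lost without wild-type day 0 replicate 1 (adjusted p = 0.765), wild-type day 0 replicate 2 (0.501), wild-type day 9 replicate 2 (0.132), mutant day 0 replicate 1 (0.248), mutant day 0 replicate 2 (0.278) or mutant day 9 replicate 1 (0.160), and by limma on log2 CPM averaged over sgRNAs (adjusted p = 0.9003). Leaving out wild-type day 0 replicate 1 gave 1 gene, wild-type day 9 replicate 1 gave 18, and either mutant day 9 library gave 5. With wild-type day 9 replicate 1 left out, both LSG1 (adjusted p = 0.0210) and NMD3 (0.00632) passed, and LSG1 also passed when mutant day 9 replicate 1 was left out (0.0475). DESeq2 on all 8 libraries called both as well, LSG1 at an adjusted p of 0.000129 and NMD3 at 0.000706.

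**Figure D5:**
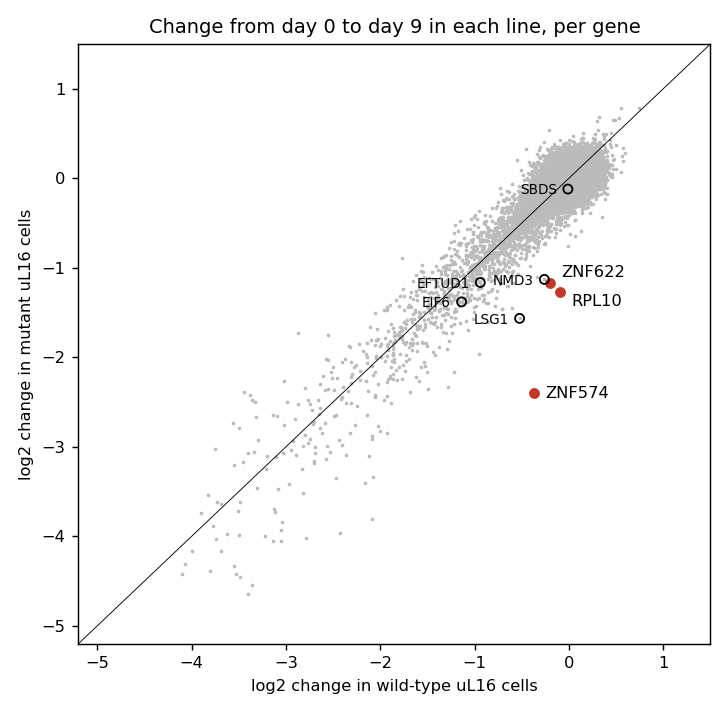
Log2 change from day 0 to day 9 in wild-type cells (x axis) and in mutant cells (y axis) for each of 18903 genes in the fit over 8 libraries, with the line of equal change, genes with a called difference in red and 5 further late large-subunit factors as open circles. ZNF574 lies farthest below the line among the red points, at -0.37 and -2.40.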

How the data were processed

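Genomic DNA was amplified and sequenced across the sgRNAs, and the authors deposited raw read counts per sgRNA and library with no normalization. Per the file headers, reads were trimmed and counted forward against the human CRISPRi version 2 library. The counting program was not given in the labels or headers used here, and the submitters' processing notes name the build hg38. Counts of sgRNAs with a mean of at least 20 over the libraries fitted were summed per gene over the primary promoter (at least 3 sgRNAs) and tested in R 4.3.3 with edgeR 4.0.16 (TMM, glmQLFit, glmQLFTest), with 2 residual degrees of freedom for the 4 mutant libraries and 4 for the difference between lines. Single sgRNAs and second promoters were tested apart. Adjusted p-values are Benjamini-Hochberg values with a threshold of 0.05, and an SE was taken from the change and its test statistic. Low counts limit the precision of single sgRNAs at day 9, where medians per library were 331 and 863.

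Named genes were the 20 largest falls and 10 largest rises with at least 75% of sgRNAs that way and libraries that did not overlap, 3 members with the smallest p and the highest member of each of 49 lists, genes with a called difference, and 8 fixed genes of late large-subunit maturation (always ZNF574, ZNF622, RPL10, LSG1, NMD3, EFTUD1, SBDS and EIF6). The lists and genes were chosen with earlier results of these data known. Symbols are those of the sgRNA names: 17438 of the tested ones are current in RefSeq, 1321 older synonyms and 144 unmatched. The replicate numbers were not shown to pair the libraries. Alternatives used DESeq2 1.42.0, limma 3.58.1, other scalings and filters, all 8 libraries in the fit, and each library left out.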

Additional observations from a re-analysis of the deposited data

Results flagged for a closer look

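The following results were singled out because the change over the growth period differed between the mutant and the wild-type line by a test of that difference. The log2 difference, mutant minus wild-type, was -2.03 for ZNF574, -0.97 for ZNF622 and -1.17 for RPL10. All 3 fell further in mutant cells. No group holds 4 or more libraries, so no library was tested as an outlier within its group.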

How the results depend on the processing

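Over the settings tried no gene called here was called in the opposite direction. With the replicate block 1754 genes fell and 236 rose, the difference between lines was called in 5 genes, 605 single sgRNAs rose and 7 second promoters fell. The deviations of same-numbered libraries correlated at 0.046, so the numbers are not shown to pair them. Rises of genes numbered 96 with control scaling, 844 with DESeq2, 79 with limma and 41 at an adjusted p under 0.01, and from 31 to 1097 with a library left out, against 180. DESeq2 called 2227 falls, and leaving out a library gave 1138 to 2377. The difference between lines was called in 47 genes by DESeq2 and in 1 to 18 with a library left out. Single sgRNAs that rose numbered 145 with control scaling and 56 to 3921 with a library left out, and those that fell 3518 to 9098. Second promoters that rose numbered 2 with control scaling and 0 to 25 with a library left out, and those that fell 4 to 38. The cause of these moves was not tested. LARP1 reversed to 0.12 without its most abundant sgRNA. Of the values of named genes against the alternatives, 3241 stayed on their side of the threshold, 33 lost the call and 29 gained it. Direction was not compared where neither fit made a call. Values there could change sign, as those of ABT1 did, which ran from -0.10 to 0.10. Of the counts per list 745 stayed within 1.5 times and 39 did not. Kept sgRNAs with a count of 0 numbered 8 and 3 in the day 0 libraries and 111 and 29 in the day 9 libraries, and no change below the counting error of such sgRNAs can be seen.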

Other observations

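Other genes with large falls belong to none of the lists and were named after their values were seen. C12orf45 changed by -3.62, CLNS1A, a factor for assembly of Sm rings, by -3.20 and TSR2, a chaperone of a small-subunit protein, by -3.19. HSD17B10, a subunit of mitochondrial RNase P, changed by -3.17 and its partner TRMT10C by -2.91. SSBP1, the mitochondrial single-stranded DNA binding protein, changed by -3.06 and TAMM41, a mitochondrial lipid enzyme, by -2.86. XRCC5, a subunit of the Ku heterodimer, changed by -2.93 and DBR1, the lariat debranching enzyme, by -2.91. For each of these 9 genes 5 of 5 sgRNAs were lower. Their day 9 libraries lay below both day 0 libraries, as did those of all 1693 genes that fell and of 4604 of all 18903 genes.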
